A study of Mus musculus with 18 samples.

Results

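The annexin genes measured here were the 10 genes Anxa1, Anxa2, Anxa3, Anxa4, Anxa5, Anxa6, Anxa8, Anxa9, Anxa10 and Anxa13. They were taken by symbol from a table of 55414 genes. The list was chosen with earlier results of these data known, and 2 further annexins, Anxa7 and Anxa11, were outside it. Annexins are proteins that bind acidic phospholipids in membranes when calcium rises, and they take part in membrane repair, vesicle traffic and the handling of exposed phosphatidylserine. In the gut, Anxa13 is a largely intestinal member of the apical traffic of absorptive cells, Anxa4 is common in secretory epithelia, and Anxa10 is best known from the stomach. Anxa1 and Anxa2 are also known outside the cell, Anxa1 as a ligand of formyl peptide receptors in the resolution of inflammation and Anxa2 as a plasminogen and tissue plasminogen activator receptor with its partner S100a10.

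All cultures were small intestinal organoids of C57BL/6J wild-type mice, harvested on day 6, in 6 groups of 3 libraries that the series calls biological replicates. MG_5FU and MG_Control were crypt organoids embedded in Matrigel, a gel of basement membrane proteins, and fed ENR medium, which contains EGF, R-spondin 1 and Noggin. MG_5FU received 40 µM 5-fluorouracil (5-FU), a pyrimidine analog that blocks thymidylate synthesis, from day 4, and MG_Control received none. COL_5FU and COL_Control were crypt organoids embedded in type I collagen and fed ENRW medium, the first with the same dose of 5-FU over the same days and the second without. VIL cultures were grown from villi taken close to the pylorus, in collagen type I with 25% cWRNE medium, and COL_cWRNE cultures were crypt organoids in the same matrix and medium. Matrix and medium changed together between MG_Control and COL_Control, so their parts in a difference cannot be told apart.

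Between 22.3 M and 34.5 M estimated counts were assigned per library, and single annexin values ranged from 7 to 126731 estimated counts. Epithelial markers (Epcam, Cdh1, Krt8, Krt18, Krt19 and Vil1) were detected in every group, at a summed 8208.3 to 27489.6 CPM (counts scaled to a common library size). Cdkn1a, a p53 target that DNA damage induces, was at 898.4 to 1105.6 CPM in the 6 libraries with 5-FU and at 67.6 to 208.8 CPM in their controls. Replicate 2 of each group carried Y-linked transcripts (3323 to 5577 counts) and the others carried Xist. COL_Control replicate 3 stood apart with 738 Y-linked counts beside 4893 Xist counts, so results that use COL_Control are also given without it where they change. The VIL libraries held other cell types: summed mesenchymal markers (8 genes) were 50.4, 739.7 and 680.4 CPM, and summed immune markers (7 genes) were 913.0, 2580.4 and 3718.4 CPM. Endothelial markers (4 genes) summed to 3.13, 4.34 and 26.4 CPM there. In COL_cWRNE the same sums were at most 7.87 CPM for the mesenchymal list and 68.0 CPM for the immune list. In these bulk libraries, fewer cells of a type and less RNA per cell cannot be told apart.

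Compared per transcript length, in TPM, a unit that allows for transcript length and depth, the summed annexin mRNA was 3082.4 ± 107.3 TPM in MG_5FU and 1984.4 ± 68.6 TPM in MG_Control (SD, n = 3 each). It was 7466.7 ± 631.6 TPM in COL_5FU and 4956.4 ± 251.5 TPM in COL_Control. It was 6538.7 ± 1750.0 TPM in VIL and 8214.9 ± 752.8 TPM in COL_cWRNE, and the VIL libraries were spread from 4519.2 to 7609.6 TPM. Within each 5-FU pair the treated libraries were all above the controls. These sums were computed in TPM only, and for Anxa2 and Anxa4 the order of the groups differed between TPM and CPM.

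The makeup of this sum differed between the groups. Anxa4 made up 32.6% ± 2.75 of annexin TPM in MG_5FU and 57.7% ± 3.41 in MG_Control, where it was the most abundant member in all 3 libraries. Anxa2 was the most abundant member in MG_5FU, with 45.2% ± 2.06 of the sum, against 28.3% ± 3.61 in MG_Control. Anxa1 held 2.30% ± 0.252 of the sum in MG_5FU, 0.603% ± 0.215 in MG_Control, 15.1% ± 3.60 in COL_5FU, 5.66% ± 2.40 in COL_Control, 9.21% ± 0.453 in VIL and 14.9% ± 1.76 in COL_cWRNE (SD, n = 3 each). Anxa9, whose calcium-binding sites are degenerate, was the least abundant member in MG_5FU, COL_5FU, VIL and COL_cWRNE by mean share, while Anxa8 was lower in MG_Control and COL_Control. Anxa9 averaged between 0.842 TPM in MG_Control and 3.76 TPM in COL_cWRNE.

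**Figure D1:**
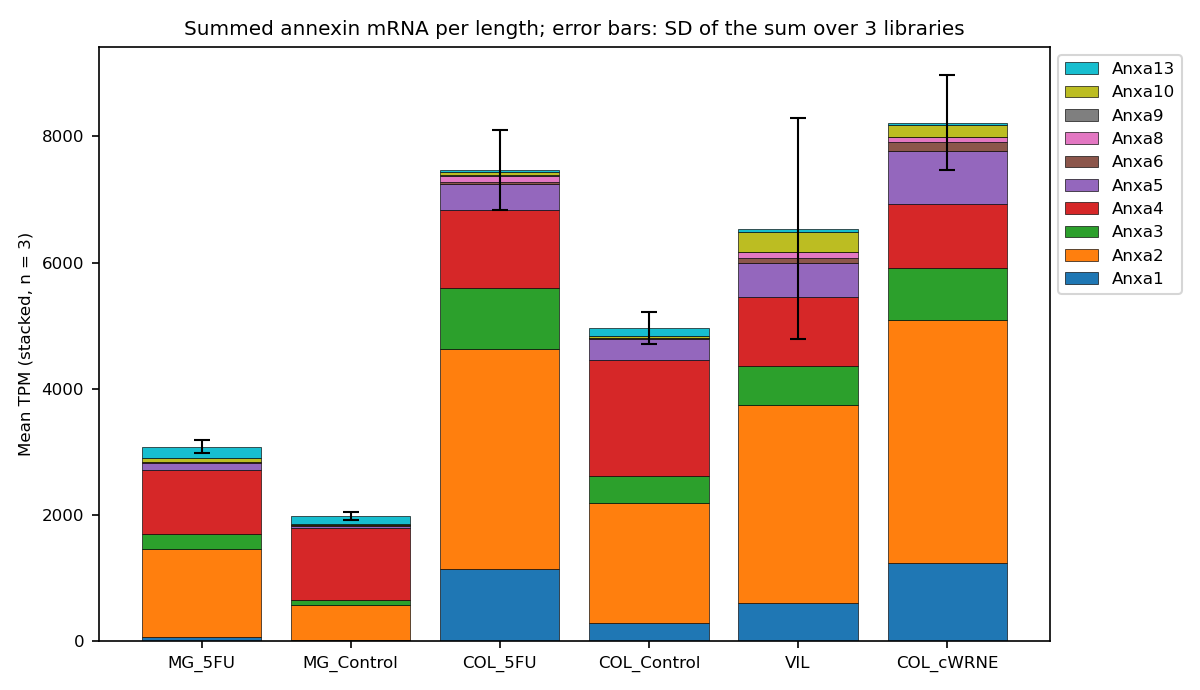
Stacked mean TPM of the 10 annexin genes in each group of 3 libraries, with the SD of the summed level as error bar. The sum was 3082.4 TPM in MG_5FU, 1984.4 TPM in MG_Control and 8214.9 TPM in COL_cWRNE, and Anxa4 was the largest piece in MG_Control while Anxa2 was the largest in COL_5FU, VIL and COL_cWRNE.

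Promoter sequences are shown for Anxa1, Anxa2, Anxa8 and Anxa10, which were chosen by name. They include every member whose window held a match to a motif named below. The windows of Anxa4, Anxa5 and Anxa9 held no match and are not shown. The sequences shown are RefSeq sequences of GRCm38.p6, an earlier build than the GRCm39 of the deposited files. They run from 250 bases before to 50 bases after the gene's start, written 5′ to 3′ on the strand of the gene. Capitals mark matches on either strand to an AP-1 site (TGANTCA), a TEAD site (GGAATG) or a p53 half-site. Anxa1 lies on the minus strand at chr19:20390622-20390921, Anxa2 on the plus strand at chr9:69453433-69453732, Anxa8 on the plus strand at chr14:34085729-34086028 and Anxa10 on the minus strand at chr8:62123144-62123443.
Anxa1: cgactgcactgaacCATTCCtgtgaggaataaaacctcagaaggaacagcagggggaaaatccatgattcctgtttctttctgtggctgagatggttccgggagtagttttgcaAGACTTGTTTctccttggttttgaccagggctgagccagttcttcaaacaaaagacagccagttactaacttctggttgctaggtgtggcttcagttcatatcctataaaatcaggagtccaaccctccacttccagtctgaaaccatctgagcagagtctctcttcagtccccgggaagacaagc
Anxa2: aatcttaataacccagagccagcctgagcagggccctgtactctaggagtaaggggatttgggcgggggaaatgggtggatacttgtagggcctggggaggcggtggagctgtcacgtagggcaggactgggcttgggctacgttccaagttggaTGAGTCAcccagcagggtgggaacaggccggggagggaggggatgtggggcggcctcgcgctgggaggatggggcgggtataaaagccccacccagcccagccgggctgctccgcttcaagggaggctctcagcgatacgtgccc
Anxa8: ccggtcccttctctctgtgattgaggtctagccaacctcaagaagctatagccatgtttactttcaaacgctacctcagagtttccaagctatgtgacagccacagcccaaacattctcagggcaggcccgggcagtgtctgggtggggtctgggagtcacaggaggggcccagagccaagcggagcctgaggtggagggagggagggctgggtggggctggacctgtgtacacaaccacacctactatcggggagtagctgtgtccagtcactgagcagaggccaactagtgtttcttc
Anxa10: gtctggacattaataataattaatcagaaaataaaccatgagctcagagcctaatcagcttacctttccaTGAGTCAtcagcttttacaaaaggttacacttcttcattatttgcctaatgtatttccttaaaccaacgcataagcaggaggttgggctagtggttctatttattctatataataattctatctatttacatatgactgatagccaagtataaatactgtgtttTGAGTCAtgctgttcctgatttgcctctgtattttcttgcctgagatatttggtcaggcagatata

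In the Anxa1 window the capitals mark a TEAD match, read on the opposite strand, that begins 236 bases before the start and a p53 half-site match that begins 136 bases before it. Anxa2 held an AP-1 match 95 bases before the start, and Anxa10 held AP-1 matches 180 and 16 bases before it. The Anxa8 window held none of these letters. Over all 32851 promoter windows of the same length, 7.81% held an AP-1 match, 14.7% a TEAD match and 8.36% a p53 half-site match. Promoter windows were found for 7 of the 10 members, and not for Anxa3, Anxa6 and Anxa13. These 7 members had 9 windows, of which 2 held an AP-1 match, 1 a TEAD match and 1 a p53 half-site match. All of these matches were in Anxa1, Anxa2 or Anxa10. A match is a description of the letters, and binding was not measured.

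In Matrigel, 5-FU raised 8 of the 10 annexins and lowered none. Over all 16611 genes tested in that fit, 30.9% were called, 19.2% higher and 11.7% lower (edgeR, adjusted p under 0.05). The median annexin log2 fold change was 1.74, against 0.06 for all genes tested. Anxa8, Anxa1 and Anxa10 had the largest differences, and Anxa4 and Anxa9 did not pass the test. The split of all called genes moved with the scaling, from 62.2% higher to 44.6% on library totals (8 annexins higher) and 28.2% on log2(TPM + 1) values with limma (7 annexins higher).

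Anxa8, a late endosomal annexin with a narrow range of tissues, had 13.3, 9.79 and 8.98 CPM in MG_5FU, against 0.505, 0.462 and 0.212 CPM in MG_Control. Its control values rested on 14, 13 and 7 estimated counts, and the treated values stood far above them without overlap. The log2 fold change was 4.83 ± 0.35 (SE; edgeR adjusted p = 3.92e-07), or 28.5-fold. Squamous epithelial markers (5 genes) summed to 6.12, 4.17 and 6.50 CPM in MG_5FU, against 1.19, 0.533 and 0.606 CPM in MG_Control. Krt4 made up most of these sums, with means of 5.39 CPM in MG_5FU and 0.765 CPM in MG_Control. It was higher by 2.87 ± 0.44 (edgeR adjusted p = 0.000238). Only 2 of the 5 were tested, and the other, Krt14, was near 0 and not called (-1.86 ± 2.03, edgeR adjusted p = 0.54). Trp63 was at 0 in both groups. The part of these markers in the Anxa8 difference was not tested. Anxa1, the formyl peptide receptor ligand, had 115.1, 82.4 and 102.5 CPM in MG_5FU, against 18.2, 16.7 and 7.85 CPM in MG_Control. All 3 treated libraries were higher, with control replicate 3 the lowest. Its log2 fold change was 2.87 ± 0.38 (edgeR adjusted p = 6.60e-05).

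Anxa10, the gastric member, had 115.1, 67.9 and 90.7 CPM in MG_5FU, against 24.1, 17.3 and 12.7 CPM in MG_Control. The groups did not overlap, and the log2 fold change was 2.39 ± 0.32 (edgeR adjusted p = 7.06e-05). Summed gastric and Brunner gland markers were 5.84, 1.06 and 2.44 CPM in MG_5FU and 1.01, 0.818 and 0.424 CPM in MG_Control, with Gkn2 and Muc5ac at 0 in both groups, and their part in the Anxa10 difference was not tested. Anxa3, known from human neutrophils as a granule-aggregating protein, had 339.3, 286.4 and 316.2 CPM in MG_5FU, against 73.4, 85.9 and 69.6 CPM in MG_Control. This was a narrow spread in both groups, with a log2 fold change of 2.09 ± 0.20 (edgeR adjusted p = 3.69e-06).

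Anxa5, the phosphatidylserine-binding protein used to stain dying cells, had 185.6, 125.6 and 128.4 CPM in MG_5FU, against 50.9, 40.2 and 36.5 CPM in MG_Control. Anxa2 had 2001.7, 1562.8 and 1606.7 CPM in MG_5FU, against 668.7, 571.5 and 469.4 CPM in MG_Control. Neither gene's groups overlapped, and the log2 fold changes were 1.83 ± 0.23 for Anxa5 and 1.65 ± 0.14 for Anxa2 (edgeR adjusted p = 4.00e-05 and 2.32e-06). Anxa6, whose annexin core is duplicated, had 18.6, 19.3 and 18.8 CPM in MG_5FU, against 8.02, 8.11 and 8.40 CPM in MG_Control, a log2 fold change of 1.25 ± 0.24 (edgeR adjusted p = 0.00135). It was low in both groups and closely spaced within each.

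Anxa13, the intestinal member, had 210.1, 200.5 and 222.5 CPM in MG_5FU, against 116.5, 126.8 and 136.3 CPM in MG_Control. All treated libraries were higher, and the log2 fold change was 0.78 ± 0.19 (edgeR adjusted p = 0.00572). It did not pass on log2(TPM + 1) values (0.47, limma adjusted p = 0.112). Summed enterocyte markers (Alpi, Fabp1, Fabp2, Apoa1, Apoa4, Sis and Lct) were 8891.9, 7483.8 and 8050.2 CPM in MG_5FU, against 2638.2, 2411.9 and 2394.9 CPM in MG_Control, and their part in the Anxa13 difference was not tested. Anxa4 had 1615.1, 1591.2 and 1444.9 CPM in MG_5FU, against 1444.5, 1474.9 and 1486.7 CPM in MG_Control, and the groups overlapped. Its log2 fold change was 0.12 ± 0.11 (edgeR adjusted p = 0.416), and its sign turned with the scaling, to -0.03 on library totals. Anxa9 averaged 1.80 CPM in MG_5FU and 1.20 CPM in MG_Control, with overlapping libraries (edgeR adjusted p = 0.308).

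**Figure D2:**
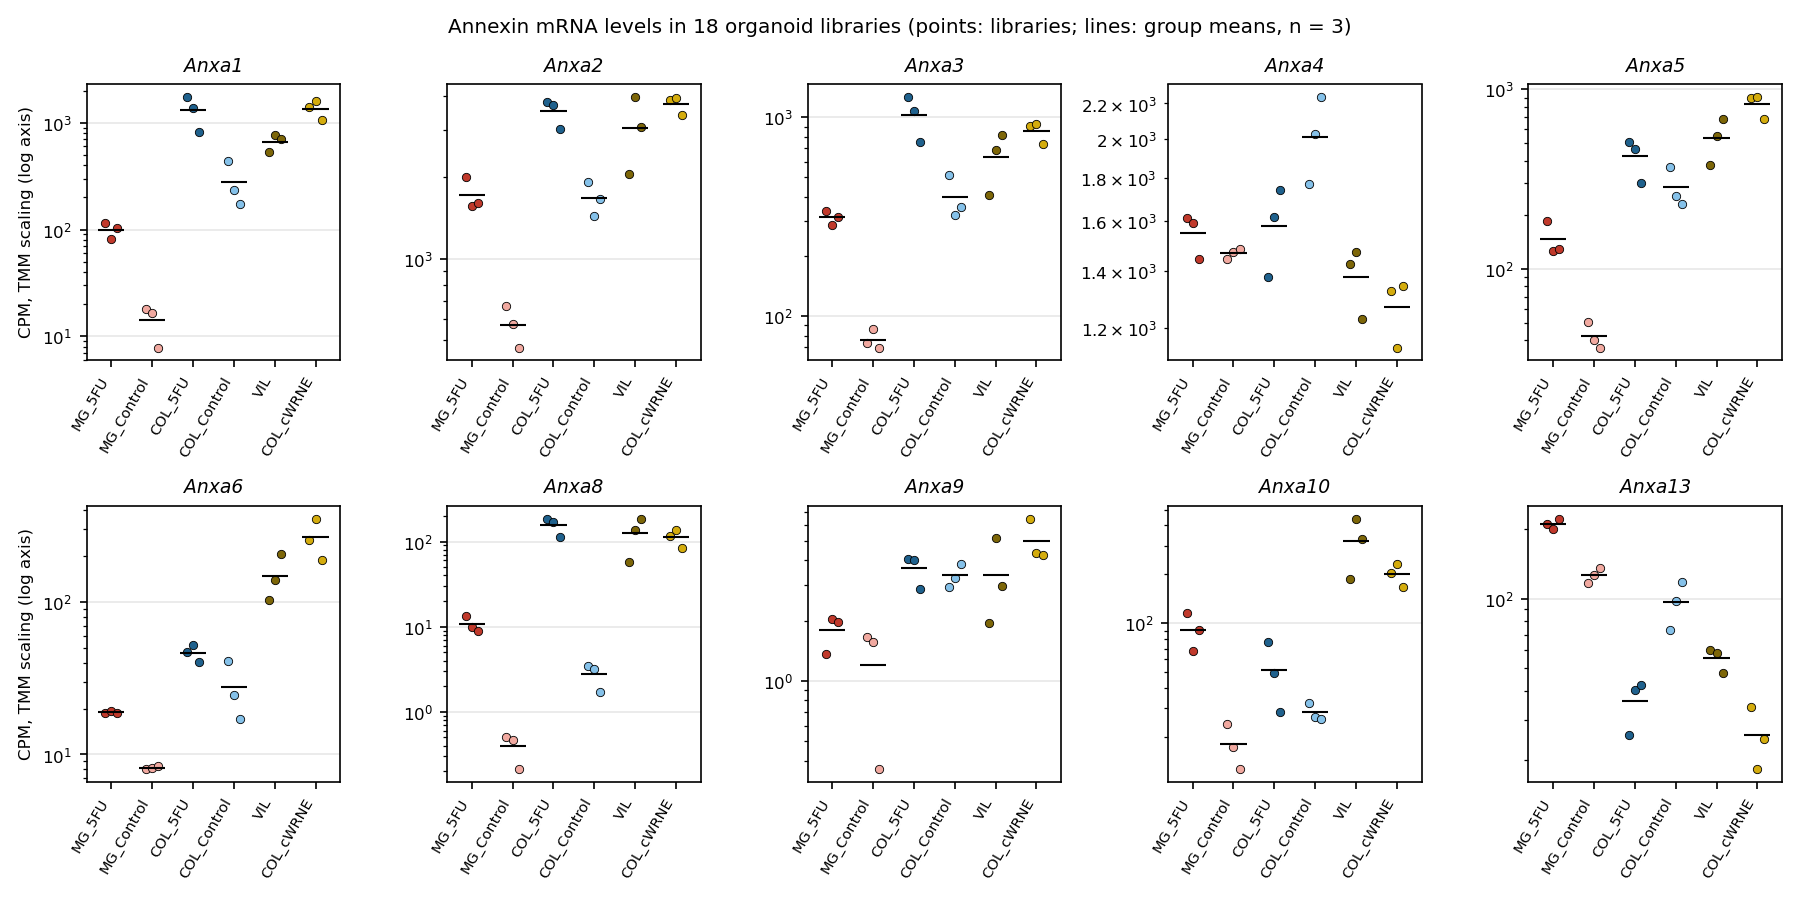
Level of each annexin gene in each of the 18 libraries, in CPM with TMM scaling on a log axis whose range differs between panels; points are libraries and lines are means of 3. Anxa8 ran from 0.212 to 0.505 CPM in MG_Control and from 112.5 to 181.5 CPM in COL_5FU, while all 18 Anxa4 values lay between 1138.0 and 2238.6 CPM.

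In collagen, 5-FU raised 5 annexins (Anxa1, Anxa2, Anxa3, Anxa6 and Anxa8) and lowered 2 (Anxa4 and Anxa13). Of all genes tested 35.3% were called, 18.6% higher and 16.7% lower, and the median annexin log2 fold change was 0.76, against -0.03 for all genes. Of the called genes 52.8% were higher, against 41.7% on library totals and 40.2% on log2(TPM + 1) values, and under either of these 4 annexins were called higher and 2 lower. Replicates of the same number deviated together here, and with the replicate number as a block Anxa5 (log2 fold change 0.53, edgeR adjusted p = 0.00271) and Anxa10 (0.74, edgeR adjusted p = 0.0118) were called too, so that 7 were higher and 2 lower. Without COL_Control replicate 3, 4 were higher and 1 lower.

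Anxa8 had 181.5, 169.8 and 112.5 CPM in COL_5FU, against 3.41, 3.15 and 1.70 CPM in COL_Control. The treated libraries were all far above the controls, at 53.9-fold, or a log2 fold change of 5.75 ± 0.28 (edgeR adjusted p = 4.13e-08). Squamous epithelial markers (Krt5, Krt14, Krt13, Krt4 and Trp63) summed to 107.3, 110.5 and 71.7 CPM in COL_5FU, against 14.8, 9.28 and 4.71 CPM in COL_Control, with Trp63 at 0 in both groups, and their part in the Anxa8 difference was not tested.

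Anxa1 had 1742.5, 1368.8 and 812.1 CPM in COL_5FU, against 435.4, 234.6 and 175.2 CPM in COL_Control. The lowest treated library was above the highest control library, and the log2 fold change was 2.17 ± 0.36 (edgeR adjusted p = 0.000422). Anxa3 had 1266.7, 1082.8 and 753.1 CPM in COL_5FU, against 515.5, 323.1 and 356.1 CPM in COL_Control, and Anxa2 had 3809.2, 3715.5 and 3008.3 CPM in COL_5FU, against 1925.1, 1438.6 and 1664.7 CPM in COL_Control. Both rose without overlap, with log2 fold changes of 1.33 ± 0.19 for Anxa3 and 1.02 ± 0.14 for Anxa2 (edgeR adjusted p = 0.000141 and 0.000119). Anxa6 had 46.7, 52.4 and 40.3 CPM in COL_5FU, against 40.9, 24.7 and 17.0 CPM in COL_Control, and the first control library lay within the treated range. Its log2 fold change of 0.71 ± 0.23 passed the test (edgeR adjusted p = 0.0293), but not without COL_5FU replicate 1 or 2 or without COL_Control replicate 2 or 3 (edgeR adjusted p = 0.0656 to 0.101), nor on library totals (0.0644).

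Anxa13 had 25.6, 40.3 and 42.3 CPM in COL_5FU, against 72.9, 98.1 and 118.3 CPM in COL_Control. It was lower in all 3 treated libraries, with a log2 fold change of -1.46 ± 0.19 (edgeR adjusted p = 7.36e-05), the opposite direction to Matrigel. Enterocyte markers summed to 82.6, 102.9 and 134.7 CPM in COL_5FU, against 96.7, 406.7 and 566.6 CPM in COL_Control, and their part in the Anxa13 difference was not tested. Anxa4 had 1377.4, 1618.2 and 1741.8 CPM in COL_5FU, against 1770.7, 2024.7 and 2238.6 CPM in COL_Control. The groups stood apart only narrowly, and the log2 fold change of -0.39 ± 0.11 (edgeR adjusted p = 0.0104) was no longer called without COL_Control replicate 3 (edgeR adjusted p = 0.0559) or COL_5FU replicate 1 (0.0570). Anxa5 averaged 425.7 CPM in COL_5FU and 285.8 CPM in COL_Control, and Anxa10 averaged 51.5 CPM in COL_5FU and 28.3 CPM in COL_Control. The libraries of both genes overlapped between the groups, and neither passed the unblocked test (edgeR adjusted p = 0.0772 for Anxa5 and 0.0521 for Anxa10). Anxa9 averaged 3.65 CPM in COL_5FU and 3.36 CPM in COL_Control (edgeR adjusted p = 0.916).

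The difference between the 5-FU responses, collagen minus Matrigel, was tested as an interaction. It was negative for 4 annexins and positive for none, where 8.19% of all genes were called, 6.30% negative and 1.88% positive, and the annexin median was -0.66, against -0.07 for all genes. Anxa13 had the largest, at -2.24 ± 0.27 on the log2 scale (edgeR adjusted p = 0.00024), with opposite directions in the 2 matrices, and it was called in each of 12 fits that left out 1 library. Anxa10 differed by -1.58 ± 0.43 (edgeR adjusted p = 0.0388), Anxa5 by -1.31 ± 0.31 (edgeR adjusted p = 0.0198) and Anxa4 by -0.52 ± 0.15 (edgeR adjusted p = 0.0490). Those 3 were less firm: over the 12 fits Anxa5 was called in 10, Anxa10 in 4 and Anxa4 in 2, and with all 18 libraries in one fit none of the 3 was called. The number of annexins called was 1 without MG_5FU replicate 1 or MG_Control replicate 2, and 2 without MG_5FU replicate 3, MG_Control replicate 3, COL_5FU replicate 2 or COL_Control replicate 2 or 3.

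The interaction was not called for Anxa1 (-0.70 ± 0.50, edgeR adjusted p = 0.464), Anxa2 (-0.63 ± 0.20, 0.0730), Anxa3 (-0.76 ± 0.27, 0.102), Anxa6 (-0.55 ± 0.33, 0.376) or Anxa9 (-0.58 ± 0.62, 0.663). With the replicate number as a block, Anxa2 was called as well, at -0.63 (edgeR adjusted p = 0.0144), and it was called without MG_Control replicate 1 (0.0427). The numbers paired the libraries in each 5-FU comparison, but over the 4 groups 16 of 18 correlations were over 0.1. For Anxa8 it was 0.92 ± 0.50 (edgeR adjusted p = 0.318), and on log2(TPM + 1) values it was 2.61 (limma adjusted p = 0.000709). A pseudocount of 1 TPM is larger than the Anxa8 level of 0.273 TPM in MG_Control and understates its change there. Among all called genes 23.0% were positive, against 33.0% on library totals and 33.7% with RLE size factors, and with either of these 3 annexins were called negative and none positive. On log2(TPM + 1) values 57.8% were positive, with 3 annexins negative and Anxa8 positive.

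**Figure D3:**
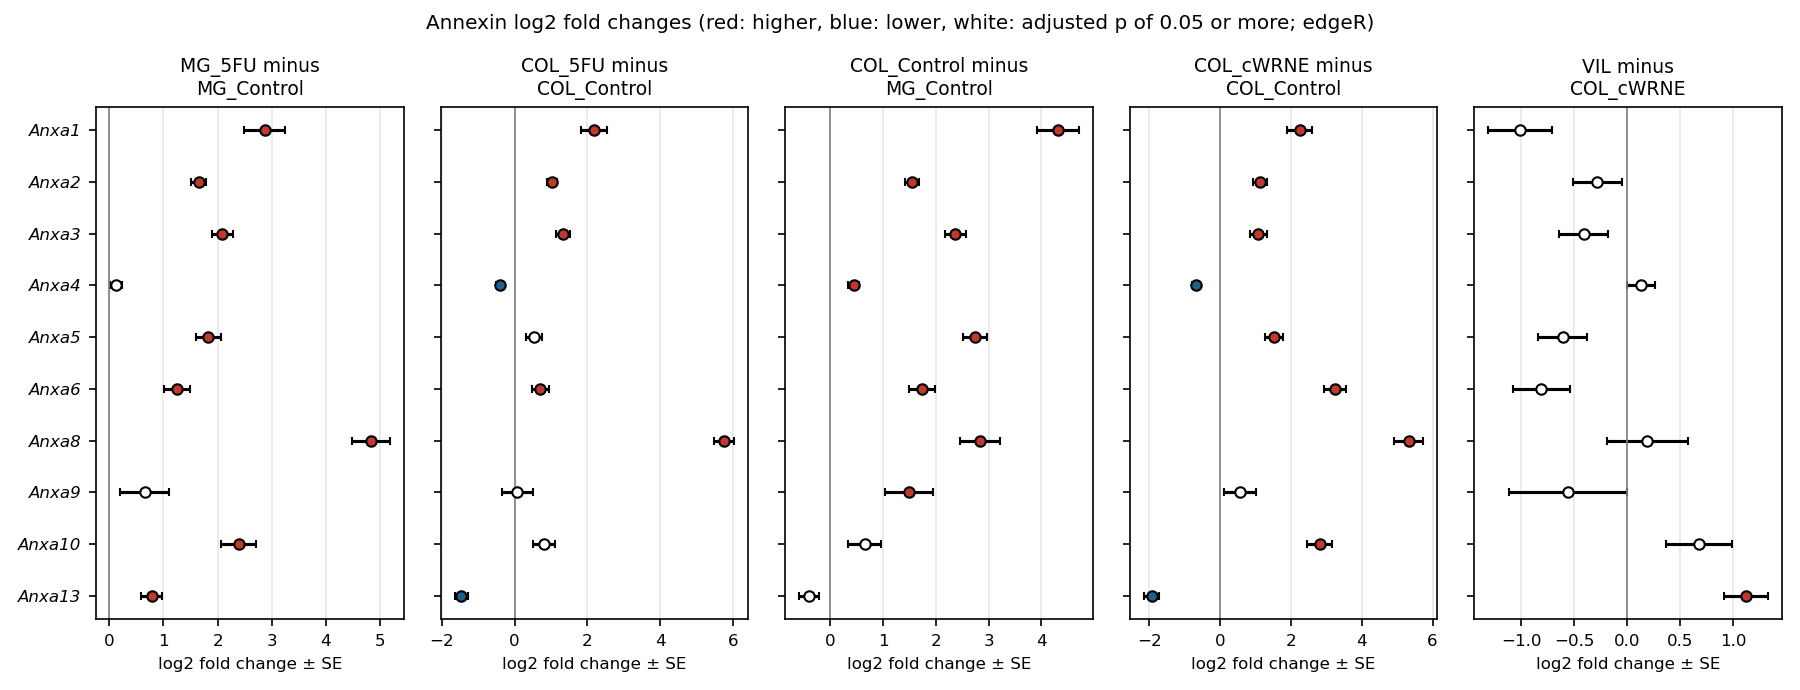
Log2 fold change with its SE for each annexin gene in 5 comparisons, each panel with its own axis range; filled points passed an edgeR adjusted p of 0.05, red for higher and blue for lower. Anxa13 was 0.78 in Matrigel and -1.46 in collagen under 5-FU, and Anxa8 was 4.83 and 5.75 in the same comparisons.

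Without 5-FU, 8 annexins were higher in collagen with ENRW than in Matrigel with ENR, and none was lower. Over all genes tested 31.2% were called, 15.8% higher and 15.4% lower, and the median annexin log2 fold change was 1.64, against 0.04 for all genes. Anxa1 had the largest difference, with 435.4, 234.6 and 175.2 CPM in COL_Control, against 18.2, 16.7 and 7.85 CPM in MG_Control. This was 19.8-fold with no overlap, a log2 fold change of 4.31 ± 0.40 (edgeR adjusted p = 3.83e-06). Of all called genes 50.7% were higher, against 72.8% on log2(TPM + 1) values, where 9 annexins were higher and none lower. Enterocyte markers were lower, 5 of 7 by the test with a median of -3.49, and summed to 96.7, 406.7 and 566.6 CPM in COL_Control, against 2638.2, 2411.9 and 2394.9 CPM in MG_Control. Squamous epithelial markers summed to 4.71 to 14.8 CPM in COL_Control and 0.533 to 1.19 CPM in MG_Control, and the part of either list in the annexin differences was not tested. This comparison and both 5-FU comparisons share their control libraries, so their values are set side by side only.

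Anxa5 had 371.8, 256.0 and 229.5 CPM in COL_Control, against 50.9, 40.2 and 36.5 CPM in MG_Control, and Anxa8 had 3.41, 3.15 and 1.70 CPM, against 0.505, 0.462 and 0.212 CPM in the same groups. Their log2 fold changes were close to each other, 2.74 ± 0.23 for Anxa5 and 2.83 ± 0.38 for Anxa8 (edgeR adjusted p = 1.88e-06 and 8.88e-05). Anxa3 had 515.5, 323.1 and 356.1 CPM in COL_Control, against 73.4, 85.9 and 69.6 CPM in MG_Control, a log2 fold change of 2.37 ± 0.20 (edgeR adjusted p = 1.55e-06). Anxa6 rose by 1.74 ± 0.24 and Anxa2 by 1.55 ± 0.14 on the same scale (edgeR adjusted p = 0.000118 and 4.03e-06), again without overlap. In their levels Anxa2 was already high in both groups, with means of 1676.2 CPM in COL_Control and 569.9 CPM in MG_Control, while Anxa6 averaged 27.5 CPM in COL_Control and 8.17 CPM in MG_Control.

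Anxa4 was modestly higher in collagen, by 0.44 ± 0.11 (edgeR adjusted p = 0.00596), and COL_Control held its highest mean of all 6 groups, 2011.3 CPM. Anxa9 averaged 3.36 CPM in COL_Control and 1.20 CPM in MG_Control and rose by 1.49 ± 0.45 (edgeR adjusted p = 0.0210), a call that was lost without COL_Control replicate 3 (edgeR adjusted p = 0.0588). Anxa10 averaged 28.3 CPM in COL_Control and 18.1 CPM in MG_Control, with groups that did not overlap but an edgeR adjusted p of 0.132. Anxa13 averaged 96.4 CPM in COL_Control and 126.5 CPM in MG_Control, at -0.40 ± 0.19 (edgeR adjusted p = 0.122). It was called lower without COL_Control replicate 3, at -0.58 (edgeR adjusted p = 0.0478), which left 7 annexins higher and 1 lower. With the replicate number as a block, Anxa10 at 0.68 and Anxa13 at -0.42 were called (edgeR adjusted p = 0.0212 and 0.0231). That fit gave 9 annexins higher and 1 lower.

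Within collagen, cWRNE medium in place of ENRW was accompanied by 7 annexins that were higher and 2 that were lower. Of 17708 genes tested 18.0% were called, 13.1% higher and 4.85% lower, and the annexin median was 1.32, against 0.00 for all genes. Without COL_Control replicate 3 the count was again 7 higher and 2 lower. On library totals the median of all genes moved to -0.16 and the share of called genes that were higher was 45.2% in place of 73.0% (51.4% on log2(TPM + 1) values), and 7 annexins were again higher and 2 lower on library totals.

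Anxa8 had 117.0, 136.1 and 84.0 CPM in COL_cWRNE, against 3.41, 3.15 and 1.70 CPM in COL_Control, a log2 fold change of 5.32 ± 0.42 (edgeR adjusted p = 4.69e-06). Anxa6 had 255.5, 352.7 and 188.1 CPM in COL_cWRNE, against 40.9, 24.7 and 17.0 CPM in COL_Control, and rose by 3.25 ± 0.31 (edgeR adjusted p = 8.41e-06). Both genes were higher in every COL_cWRNE library than in any COL_Control library. Anxa10 had 204.3, 231.1 and 167.8 CPM in COL_cWRNE, against 32.4, 26.6 and 25.9 CPM in COL_Control, and rose by 2.81 ± 0.36 (edgeR adjusted p = 7.30e-05). Squamous epithelial markers summed to 163.8 to 290.3 CPM in COL_cWRNE and 4.71 to 14.8 CPM in COL_Control, with Trp63 at 0 in both, and gastric markers to 1.80 to 4.48 CPM in COL_cWRNE and 0.0335 to 0.362 CPM in COL_Control; their part in these differences was not tested.

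Anxa1 had 1403.7, 1613.9 and 1060.8 CPM in COL_cWRNE, against 435.4, 234.6 and 175.2 CPM in COL_Control. It was higher throughout, by 2.25 ± 0.36 (edgeR adjusted p = 0.000465). Anxa5 rose by 1.52 ± 0.26, Anxa2 by 1.13 ± 0.20 and Anxa3 by 1.08 ± 0.24, each without overlap (edgeR adjusted p = 0.000728, 0.00106 and 0.00478). Anxa13 had 34.1, 18.3 and 24.8 CPM in COL_cWRNE, against 72.9, 98.1 and 118.3 CPM in COL_Control. This was its lowest group mean, and it fell by 1.93 ± 0.22 on the log2 scale (edgeR adjusted p = 3.10e-05). Of 7 enterocyte markers 3 were called lower and none higher, with sums of 140.6, 176.1 and 141.9 CPM in COL_cWRNE, against 96.7, 406.7 and 566.6 CPM in COL_Control, and their part in the Anxa13 difference was not tested. Anxa4 had 1324.2, 1138.0 and 1343.9 CPM in COL_cWRNE, against 1770.7, 2024.7 and 2238.6 CPM in COL_Control, and fell by 0.68 ± 0.12 (edgeR adjusted p = 0.000671). Anxa9 averaged 5.01 CPM in COL_cWRNE and 3.36 CPM in COL_Control, and its edgeR adjusted p was 0.430.

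Villus-derived cultures were set against crypt organoids in the same collagen and cWRNE medium. The villi were taken close to the pylorus, and no such site is given here for the crypts. Tissue of origin and gut region may therefore differ together. Anxa13 was the 1 annexin called higher, and none was called lower, where 7.64% of 16699 genes tested were called, 5.68% higher and 1.96% lower. Of the called genes 74.4% were higher, against 54.0% on log2(TPM + 1) values, where Anxa1 and Anxa13 were called. The annexin median was -0.34, against -0.03 for all genes. Anxa13 had 59.9, 58.4 and 47.9 CPM in VIL, against 34.1, 18.3 and 24.8 CPM in COL_cWRNE. The groups did not overlap, and the log2 fold change was 1.12 ± 0.21 (edgeR adjusted p = 0.0140), with 0.0646 without COL_cWRNE replicate 3. Enterocyte markers summed to 2219.1, 691.9 and 262.1 CPM in VIL, against 140.6, 176.1 and 141.9 CPM in COL_cWRNE, and their part in the Anxa13 difference was not tested.

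Anxa1 had 528.5, 768.7 and 699.2 CPM in VIL, against 1403.7, 1613.9 and 1060.8 CPM in COL_cWRNE. All 3 VIL libraries were lower, but the log2 fold change of -1.01 ± 0.30 did not pass (edgeR adjusted p = 0.0724), while DESeq2 called it (-0.97, adjusted p = 0.0131). Anxa5 had 380.6, 549.4 and 680.6 CPM in VIL, against 898.1, 906.7 and 681.7 CPM in COL_cWRNE, and Anxa6 had 103.6, 139.1 and 204.9 CPM in VIL, against 255.5, 352.7 and 188.1 CPM in COL_cWRNE. Neither passed (edgeR adjusted p = 0.151 for Anxa5 and 0.110 for Anxa6), and the VIL values of both genes were lowest in replicate 1 and highest in replicate 3. Summed immune markers ran in the same order and summed enterocyte markers in the opposite order, and the part of either list was not tested.

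With VIL replicate 1, the library with the least mesenchymal and immune RNA, as the only villus-derived library, 4 annexins were called lower and 1 higher. The lower ones were Anxa2 at -0.83, Anxa3 at -1.04, Anxa5 at -1.10 and Anxa6 at -1.33 (edgeR adjusted p = 0.0296, 0.00880, 0.0183 and 0.0225), a choice made after these values were seen, in which the lone library is taken to vary like the other groups. Without VIL replicate 3, Anxa5 (-0.82) and Anxa6 (-1.12) were called lower, and without VIL replicate 1 Anxa10 was called higher, at 0.99 (edgeR adjusted p = 0.0261). The part of the other cell types in the VIL levels was not tested.

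Anxa10 had 186.4, 440.8 and 329.9 CPM in VIL, against 204.3, 231.1 and 167.8 CPM in COL_cWRNE, and gastric markers summed to 4.57, 115.1 and 22.3 CPM in VIL, against 4.48, 3.38 and 1.80 CPM in COL_cWRNE. VIL replicate 2 was the highest library in both, and the Anxa10 difference of 0.68 ± 0.31 did not pass (edgeR adjusted p = 0.236). Anxa8 had 56.9, 135.6 and 186.3 CPM in VIL, against 117.0, 136.1 and 84.0 CPM in COL_cWRNE, a wide overlapping spread (edgeR adjusted p = 0.821). Anxa2, Anxa3, Anxa4 and Anxa9 lay between -0.56 and 0.13 on the log2 scale with overlapping libraries and did not pass (edgeR adjusted p = 0.347 to 0.618).

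Set against Matrigel crypt organoids, both collagen and cWRNE groups differed in most annexins. In VIL, 7 were higher and 1 lower than in MG_Control, where 46.6% of genes were called, 27.0% higher and 19.7% lower. In COL_cWRNE 8 were higher and 1 lower, where 33.3% were called, 20.1% higher and 13.1% lower. The annexin medians were 3.31 for VIL and 3.42 for COL_cWRNE, against 0.02 and -0.01 for all genes. Anxa8 had the largest fold in both, 312.2-fold in VIL and 274.3-fold in COL_cWRNE, or 8.29 ± 0.56 and 8.10 ± 0.56 on the log2 scale (edgeR adjusted p = 2.32e-05 and 1.84e-05). Anxa1 differed by 5.50 ± 0.36 in VIL and 6.51 ± 0.37 in COL_cWRNE (edgeR adjusted p = 2.32e-05 and 1.32e-05). Anxa13 was the lower gene in both, by -1.24 ± 0.21 in VIL and -2.37 ± 0.22 in COL_cWRNE (edgeR adjusted p = 0.00144 and 6.59e-05). Anxa4 was called in neither (edgeR adjusted p = 0.368 for VIL and 0.119 for COL_cWRNE). The calls of Anxa9, at 1.44 in VIL (edgeR adjusted p = 0.0659) and 2.00 in COL_cWRNE (0.0269), depended on single libraries: for VIL the value was 1.78 (edgeR adjusted p = 0.0288) without VIL replicate 1, and for COL_cWRNE the adjusted p was 0.0511 to 0.0821 in each of the fits without MG_Control replicate 2 or without 1 of the COL_cWRNE libraries. Enterocyte markers summed to 262.1 to 2219.1 CPM in VIL and 140.6 to 176.1 CPM in COL_cWRNE, against 2394.9 to 2638.2 CPM in MG_Control, and their part in these differences was not tested. The 2 comparisons share the MG_Control libraries.

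Across the 6 groups, MG_Control had the lowest mean CPM for 8 members, all but Anxa4 and Anxa13, which were lowest in COL_cWRNE. COL_cWRNE had the highest mean for Anxa1, Anxa2, Anxa5, Anxa6 and Anxa9, COL_5FU for Anxa3 and Anxa8, VIL for Anxa10, COL_Control for Anxa4 and MG_5FU for Anxa13. For Anxa1, COL_cWRNE and COL_5FU overlapped at the top, followed without overlap by VIL, COL_Control, MG_5FU and MG_Control. For Anxa8, COL_5FU, VIL and COL_cWRNE overlapped at 154.6, 126.2 and 112.4 CPM, and MG_5FU, COL_Control and MG_Control followed without overlap. The span between highest and lowest group mean was 393.1-fold for Anxa8, 95.4-fold for Anxa1, 8.20-fold for Anxa13 and 1.59-fold for Anxa4. In TPM, 3 members were ordered differently. For Anxa2, COL_Control and MG_5FU overlapped in CPM, at means of 1676.2 and 1723.8 CPM, but in TPM COL_Control stood above MG_5FU without overlap, at means of 1907.7 and 1394.0 TPM. For Anxa4, MG_5FU was lowest in TPM at 1003.1, just under COL_cWRNE at 1009.0. For Anxa9, COL_Control was above COL_5FU in TPM, at 2.80 and 2.66, and VIL followed at 2.53.

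Partners and receptors of annexins were described from lists. The S100 proteins are small calcium sensors that bind annexins, and 4 of 5 tested rose with 5-FU in Matrigel and 4 of 5 in collagen, with none lower. S100a10, the partner of Anxa2, had 294.2, 233.0 and 256.5 CPM in MG_5FU, against 158.7, 151.9 and 116.5 CPM in MG_Control. The groups did not overlap, and it rose by 0.93 ± 0.14 (edgeR adjusted p = 0.000278), with 0.42 ± 0.14 in collagen (edgeR adjusted p = 0.0342). S100a11, which binds Anxa1, rose by 1.71 ± 0.21 in Matrigel and 1.47 ± 0.21 in collagen (edgeR adjusted p = 4.51e-05 and 0.000148). S100a6 rose by 2.10 ± 0.31 in Matrigel and 1.78 ± 0.30 in collagen (edgeR adjusted p = 0.000161 and 0.000483). For collagen against Matrigel, 4 were higher and 1 lower, and for cWRNE against ENRW 4 were higher and none lower. For villus-derived against crypt-derived cultures none of 5 was called. Of all genes 31.2%, 18.0% and 7.64% were called in these comparisons, in this order, so none of 5 is near the last share. S100 list medians were 1.71 and 1.32 on the log2 scale for 5-FU in Matrigel and in collagen, against 0.06 and -0.03 for all genes, of which 30.9% and 35.3% were called.

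The formyl peptide receptor transcripts Fpr1, Fpr2 and Fpr3, whose products bind Anxa1 peptides, had 0 counts in all 15 crypt-derived libraries, which allows up to 3 counts per library, and they were not tested. In VIL, Fpr1 had 7, 77 and 116 counts and Fpr2 had 6, 5 and 14 counts, in the libraries that also held immune markers, and Fpr3 had 0. Of the surface plasminogen genes, Plat, which encodes tissue plasminogen activator, and Plaur, the urokinase receptor, were the 2 called higher of 5 tested in both 5-FU comparisons, and Plgrkt, a plasminogen receptor, was the 1 called lower. Of all genes 19.2% were called higher and 11.7% lower in Matrigel, and 18.6% higher and 16.7% lower in collagen, so 1 of 5 lower is near that share. Plat had 73.2, 57.2 and 46.5 CPM in MG_5FU, against 18.6, 17.1 and 10.5 CPM in MG_Control, and rose by 1.99 ± 0.22 (edgeR adjusted p = 1.58e-05). It also rose with 5-FU in collagen, by 1.02 ± 0.21 (edgeR adjusted p = 0.00189), and in collagen against Matrigel, by 3.22 ± 0.23 (edgeR adjusted p = 4.04e-07). Plasminogen itself (Plg) was at 0 in every library. None of the 5 was called in the villus-derived against crypt-derived comparison, where 7.64% of all genes were called.

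Of the genes of membrane repair and phosphatidylserine exposure, 7 rose and 1 fell of 12 tested with 5-FU in Matrigel, and 6 rose and none fell in collagen. The medians were 0.55 in Matrigel and 0.57 in collagen, against 0.06 and -0.03 for all genes, of which 30.9% and 35.3% were called. Ahnak, a large scaffold that binds the Anxa2 and S100a10 complex, rose by 1.94 ± 0.19 in Matrigel and 1.13 ± 0.19 in collagen (edgeR adjusted p = 6.45e-06 and 0.000413). Pdcd6, the calcium sensor that recruits repair proteins, rose by 0.77 ± 0.13 and 0.94 ± 0.13 (edgeR adjusted p = 0.0005 and 0.000118) in the same order of matrices. For collagen against Matrigel 6 were higher and 1 lower of 12, where 31.2% of all genes were called. For cWRNE against ENRW 5 of 13 were higher and none lower, where 18.0% were called. None of 11 was called between villus-derived and crypt-derived cultures, where 7.64% of all genes were.

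Anxa1 was described early as an inhibitor of phospholipase A2, which frees the substrate of prostaglandin synthesis. The 5 listed genes were Pla2g4a, Ptgs1, Ptgs2, Ptges and Hpgd, and the product of Hpgd breaks prostaglandins down. Of these, 2 rose (Ptgs2 and Hpgd) and 1 fell (Pla2g4a) with 5-FU in Matrigel, where 30.9% of all genes were called. In collagen 1 rose (Ptgs2) and none fell, where 35.3% of all genes were called. Hpgd rose by 0.99 ± 0.18 in Matrigel (edgeR adjusted p = 0.000889). Ptgs2, the inducible cyclooxygenase, had 119.1, 73.1 and 39.4 CPM in COL_5FU, against 6.23, 4.79 and 1.34 CPM in COL_Control, and rose by 4.17 ± 0.69 (edgeR adjusted p = 0.000428). In Matrigel it was low, at 2.68, 4.44 and 2.35 CPM in MG_5FU against 0.996 CPM in 1 MG_Control library and 0 in the others. Pla2g4a, cytosolic phospholipase A2, had 22.7, 40.9 and 40.6 CPM in MG_5FU, against 93.3, 95.5 and 112.0 CPM in MG_Control. It was lower in all 3 treated libraries, by -1.49 ± 0.23 (edgeR adjusted p = 0.000277), the direction opposite to Ptgs2. For collagen against Matrigel 2 were higher and 2 lower, and for cWRNE against ENRW 4 were higher and none lower (31.2% and 18.0% of all genes were called). Ptgs1 was the 1 called, higher, in VIL against COL_cWRNE, where 7.64% of all genes were called.

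Anxa7 and Anxa11, annexins outside the 10 members, were also examined. For collagen against Matrigel without 5-FU, 1 of these 2 was called higher and 1 lower, where 31.2% of all genes were called. Their median log2 fold change there was 0.04, the same as for all genes. For 5-FU, 30.9% of all genes were called in Matrigel and 35.3% in collagen. Anxa7 rose by 0.57 ± 0.09 with 5-FU in Matrigel and by 0.87 ± 0.09 in collagen (edgeR adjusted p = 0.000264 and 1.15e-05). Against MG_Control it was higher by 1.06 ± 0.12 in VIL and by 1.03 ± 0.12 in COL_cWRNE (edgeR adjusted p = 0.000182 and 0.000241). Anxa11 fell by 0.25 ± 0.09 in Matrigel (edgeR adjusted p = 0.0369) and was 0.17 ± 0.09 in collagen (edgeR adjusted p = 0.133). Its interaction was called positive in the main fit, at 0.43 ± 0.12 (edgeR adjusted p = 0.0446). That call is close to the threshold, and it was not tested with a library left out or under other settings.

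**Figure D4:**
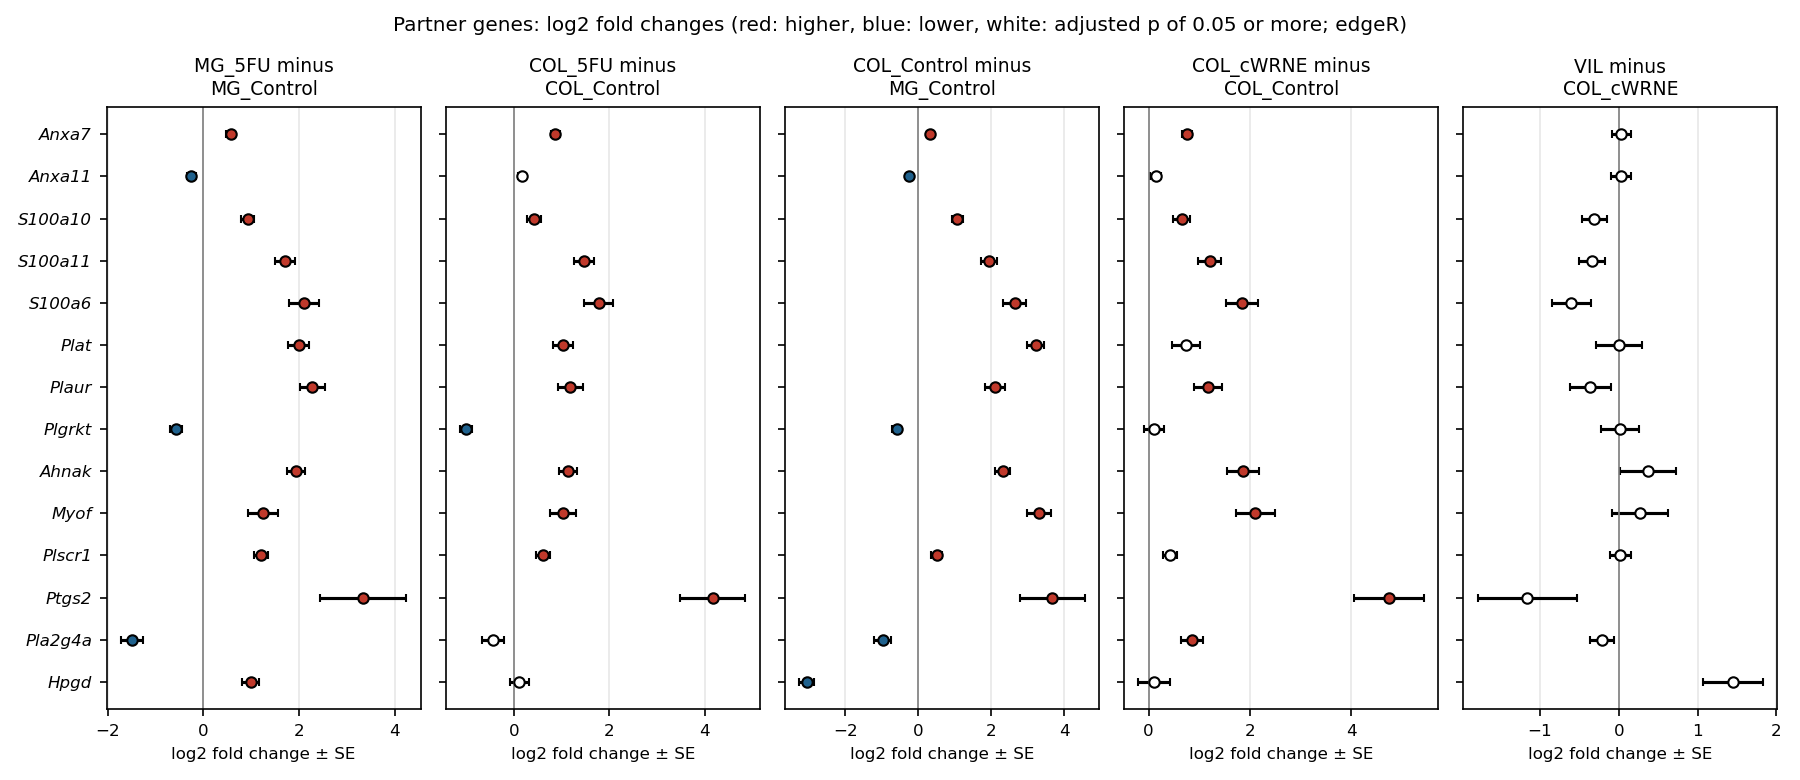
Log2 fold change with its SE for other annexins and for partner genes in 5 comparisons, each panel with its own axis range; filled points passed an edgeR adjusted p of 0.05, red for higher and blue for lower. S100a11 was 1.71 and Plat 1.99 for 5-FU in Matrigel, and Pla2g4a was -1.49 there.

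As a description of likeness, log2(CPM + 1) over the 18 libraries was correlated between annexins and the other genes with a mean of at least 10 CPM in some group. The libraries fall into 6 groups and share their scaling, so these values mostly repeat the order of the group levels, and they carry no test. Anxa1 was most like S100a6 (Pearson r = 0.991) and Ly6a (0.984), Anxa2 was most like Plaur (0.984), and Anxa3 was most like Ccn2 (0.991). Anxa5 was most like Cavin1 (0.989), Anxa6 was most like Tnfrsf11b (0.980), and Anxa8 was most like Anxa7 (0.987) and Ptpre (0.981). Anxa13 was most like Acot4 (0.952) and Tm4sf20 (0.948). The closest genes to Anxa4 and Anxa9 were less like them, Pbx3 (0.872) for Anxa4 and Id2 (0.895) for Anxa9.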

How the data were processed

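RNA was measured as poly(A) RNA-seq (SMART-Seq mRNA and Nextera XT kits, per the labels' protocols) in 18 libraries. Per the file headers, the authors deposited estimated counts per gene and TPM for each library. The submitters' processing notes name bcl2fastq 2.20, DRAGEN and the mouse build GRCm39 (mm39); the annotation, counting settings and strand handling are not given in the sources used here. As deposited, 67.8% of nonzero estimated counts were whole (163 of the 180 annexin values), so they were rounded to whole numbers. The files give no depth beyond the column totals.

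Rounded counts were fitted with edgeR 4.0.16 in R 4.3.3 (quasi-likelihood F-tests, TMM scaling, filterByExpr with a minimum count of 10 and total of 15), and p-values were adjusted by Benjamini-Hochberg over all genes tested. Each SE is the log2 fold change divided by the root of its F. Tests of 5-FU, of collagen against Matrigel and of the interaction came from 12 libraries fitted together, comparisons among VIL, COL_cWRNE and MG_Control from 9, and cWRNE against ENRW from 18. All 10 annexins passed the filter in each fit. Levels are CPM with TMM scaling over the 18 libraries; CPM on library totals and TPM were also computed. Alternatives were DESeq2 1.42.0, limma 3.58.1 on log2(TPM + 1), RLE factors, library totals, other filters and library sets, an added fold threshold, a replicate block and leaving out each library; a fit whose only VIL library is replicate 1 was added after seeing the data. The fits were also run on simulated independent counts, without pairing or mixed cell types, so that run does not cover these features of the data. No result of it is used here. Groups of 3 cannot give an exact permutation p under 0.10, so single-gene permutation tests were not used.

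After group means were removed, same-numbered libraries correlated at 0.284 to 0.564 for 5-FU in Matrigel, 0.201 to 0.425 for 5-FU in collagen and 0.178 to 0.346 for cWRNE against ENRW, so the numbers were taken to pair them there, and not in the other comparisons, where at least 1 pair was at or under 0.1. Replicate 2 of every group carried Y-linked transcripts, so whether the numbers follow the animals in the other comparisons too cannot be told. The main calls, SEs and adjusted p-values are from fits without the block, also where the numbers were taken to pair. No 2 libraries of a group were duplicates.

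All 10 annexins are named whatever their result; the partner genes named are among the 3 of each list with the lowest adjusted p in a comparison. S100a10, Ptgs2 in Matrigel, Ptgs1 and the receptors are named for their roles. The members and lists were chosen with earlier results of these data known. Partner and marker genes are given from the main fits only. The alternatives cover the 10 annexins and the counts of all genes called. Intervals and limits on counts of 0 cover counting error only. Protein sequences were not used here. The genes most like Anxa10 are not reported here.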

Additional observations from a re-analysis of the deposited data

Results flagged for a closer look

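Each of 4 annexins had a 5-FU response that differed between collagen and Matrigel by the test of the interaction (collagen minus Matrigel, log2 scale, edgeR), where 8.19% of all genes were called. The count was 1 to 4 when 1 of 12 libraries was left out and 1 with 18 libraries in one fit. Anxa13 differed by -2.24 (adjusted p = 0.00024), with a response of -1.46 in collagen and 0.78 in Matrigel, and was called in 12 of 12 fits that left out a library. Anxa10 differed by -1.58 (edgeR adjusted p = 0.0388), with 0.81 in collagen and 2.39 in Matrigel, and was called in 4 of 12. Anxa5 differed by -1.31 (edgeR adjusted p = 0.0198), with 0.53 in collagen and 1.83 in Matrigel, and was called in 10 of 12. Anxa4 differed by -0.52 (edgeR adjusted p = 0.0490), with -0.39 in collagen and 0.12 in Matrigel, and was called in 2 of 12.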

How the results depend on the processing

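Of 1262 values of single annexins under other settings, 1172 kept their direction and their side of the threshold, 37 gained a call, 45 lost one and 8 turned in sign, none of them a called value. The turned values were Anxa4 for 5-FU in Matrigel (-0.19 on log2(TPM + 1), -0.03 on library totals), Anxa9 for 5-FU in collagen (-0.06 and -0.03 under the same settings, and -0.01 to 0.22 when 1 library was left out, the lowest without COL_Control replicate 1), and, for VIL against COL_cWRNE, Anxa8 (-0.96 with VIL replicate 1 alone, -0.22 to 0.58 when 1 library was left out, the lowest without VIL replicate 3) and Anxa10 (-0.08 with VIL replicate 1 alone). The causes were not tested.

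The number of annexins called was 1 for the interaction with all 18 libraries in one fit, in place of 4. For VIL against COL_cWRNE it was 3 with no filter beyond 1 count, 2 with DESeq2, limma on TPM or only the groups compared, and 5 with VIL replicate 1 alone, in place of 1. Leaving out 1 library gave 8 annexins for 5-FU in Matrigel and 5 to 9 in collagen, 8 for collagen against Matrigel, 1 to 4 for the interaction, 9 for cWRNE against ENRW, 0 to 3 for VIL against COL_cWRNE, and 8 to 9 for VIL and for COL_cWRNE against Matrigel.

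With the replicate block, 5-FU gave 8 annexins in Matrigel and 9 in collagen, 5 were called for the interaction (Anxa2 at -0.63 added), 10 for collagen against Matrigel, 9 for cWRNE against ENRW, and 1, 8 and 9 for the villus-derived and cWRNE comparisons; it changed no call of an annexin for 5-FU in Matrigel or cWRNE against ENRW.

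Asking also for a log2 fold change of 1 or more in size left 2167 of 5128 genes for 5-FU in Matrigel, and in collagen 2218 of 5862. It left 802 of 1360 for the interaction, 2215 of 5188 for collagen against Matrigel, 1543 for cWRNE against ENRW (3184), 4794 for VIL against Matrigel (7789) and 3358 for COL_cWRNE against Matrigel (5556). The interaction gave 2219 with DESeq2 and 521 with 18 libraries, cWRNE against ENRW 1914 in a fit of 9 libraries, and VIL against Matrigel 4637 with VIL replicate 1 alone. VIL against COL_cWRNE (1276) gave 2256 with DESeq2, 2480 with 18 libraries, 847 at 10 CPM and 743 with only the groups compared. Leaving out 1 library gave 1907 (COL_Control replicate 3) to 2669 genes for cWRNE against ENRW, with 1908 to 2113 without COL_cWRNE replicate 1 or 2 or COL_Control replicate 2. It gave 351 (COL_cWRNE replicate 3) to 2050 (VIL replicate 1) for VIL against COL_cWRNE, with 371 to 678 without VIL replicate 2 or COL_cWRNE replicate 1 or 2, and 3630 (MG_Control replicate 2) to 4324 for COL_cWRNE against Matrigel, with 3654 without COL_cWRNE replicate 2. Library totals in place of TMM moved the median of all genes from 0.06 to -0.09 for 5-FU in Matrigel. Anxa8 and Anxa9 in MG_Control rest on the fewest counts.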
